A study of Mus musculus with 20 samples.

Results

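The genes described here are 10 genes of ovulation and of the expansion of the cumulus, the layer of cells that surrounds the oocyte. They are Pgr, Ptgs2, Areg, Ereg, Btc, Tnfaip6, Has2, Ptx3, Adamts1 and Edn2, which were chosen by name, and they are 10 of the 23457 genes counted in each library. All 10 were among the genes listed for each of the 20 libraries, though 19 of the 200 values were 0. The filter on low counts was passed by 9. Has2 did not pass it and is given by its counts alone.

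Polyadenylated RNA was sequenced from the ovaries of 20 females of the Ames dwarf strain, with 5 mice in each of 4 groups. Normal mice carried the genotype N/df and dwarf mice the genotype df/df, and both were studied at 6 and at 22 months of age. Animals with the df/df genotype lack growth hormone, prolactin and thyrotropin from birth, while the N/df controls carry 1 df allele with a working pituitary. The series title names reproductive senescence in these long-living mice as its subject. Whole ovaries were used, and the stage of the oestrous cycle was not given in the sources used here.

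At ovulation, the surge of luteinising hormone acts on the granulosa cells of the large follicle, which have the receptor for it. These cells make the progesterone receptor, encoded by Pgr, and release the epidermal growth factor (EGF)-like ligands amphiregulin, epiregulin and betacellulin, encoded by Areg, Ereg and Btc. The ligands act on the EGF receptor of cumulus cells, which then express Ptgs2, an enzyme of prostaglandin synthesis, and Has2, Tnfaip6 and Ptx3, which build and bind the hyaluronan matrix. The protease ADAMTS1 acts on that matrix and the follicle wall, and endothelin 2, encoded by Edn2, contracts the wall before rupture. The induction of these genes lasts for hours, and several of them are also expressed outside the follicle, Pgr among them in the epithelium of the oviduct and uterus.

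The 3 ligand genes lie in 1 cluster on chromosome 5 of mm10. Ereg (chr5:91074617-91093649, plus strand) is followed after 45965 bp by Areg (chr5:91139615-91148432, plus strand) and after a further 208828 bp by Btc (chr5:91357261-91402994, minus strand). Epgn, a 4th ligand gene of the family, lies 39404 bp before Ereg. Each ligand holds 1 EGF-like repeat, whose fold rests on 6 cysteines. The stretches that encode the repeat are shown because they are what the 3 ligands share, with the 6 cysteine codons in capitals (coding strand, from GENCODE M21 transcripts of GRCm38):
Areg: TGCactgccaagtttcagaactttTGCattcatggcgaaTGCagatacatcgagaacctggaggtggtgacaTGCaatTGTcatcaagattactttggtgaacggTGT
Ereg: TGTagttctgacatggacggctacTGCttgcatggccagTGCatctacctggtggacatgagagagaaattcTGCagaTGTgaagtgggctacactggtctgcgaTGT
Btc: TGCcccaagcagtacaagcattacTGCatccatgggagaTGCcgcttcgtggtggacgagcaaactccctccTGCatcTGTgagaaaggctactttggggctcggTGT
Each stretch had 108 bases, and the same 7, 4, 10, 1 and 8 codons stood between successive cysteine codons in all 3. Over all 108 bases, cysteine codons included, Areg and Btc were identical at 57.4% of the positions, Areg and Ereg at 53.7%, and Btc and Ereg at 52.8%. The longest run of bases shared by any pair of the whole coding sequences was 10, so no longer stretch of coding sequence was common to 2 of them.

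Promoters were found for 8 of the 10 genes in the RefSeq table (GRCm38.p6), each from 250 bases before to 50 bases after the start annotated there. That start can differ from the gene positions given elsewhere here, which come from the deposited annotation. The Ptgs2 window ends at 150100080, before the deposited start of 150100124, and the Edn2 window at 120161255, before 120161424. Bases next to those deposited starts were not searched. Ereg and Has2 were the other 2. The windows of Pgr (chr9:8899583-8899882, plus strand), Areg (chr5:91139349-91139648, plus strand), Ptgs2 (chr1:150099781-150100080, plus strand) and Ptx3 (chr3:66219637-66219936, plus strand) are shown, since the patterns described below turn on these 4 genes. Capitals mark every match, on either strand, to 8 motifs: the full cAMP response element TGACGTCA, its short form TGACG (which the full element holds on both strands), the GC box GGGCGG, the TATA box TATAAA, the RUNX core TGTGGT, the progesterone receptor motif AGAACA, the orphan receptor motif AAGGTCA and the C/EBP motif TTGCNNAA.
Pgr: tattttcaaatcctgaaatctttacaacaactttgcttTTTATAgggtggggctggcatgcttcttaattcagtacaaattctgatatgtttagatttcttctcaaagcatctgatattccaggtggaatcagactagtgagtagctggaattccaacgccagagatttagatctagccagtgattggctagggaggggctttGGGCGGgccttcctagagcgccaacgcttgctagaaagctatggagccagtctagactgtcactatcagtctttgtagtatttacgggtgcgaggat
Areg: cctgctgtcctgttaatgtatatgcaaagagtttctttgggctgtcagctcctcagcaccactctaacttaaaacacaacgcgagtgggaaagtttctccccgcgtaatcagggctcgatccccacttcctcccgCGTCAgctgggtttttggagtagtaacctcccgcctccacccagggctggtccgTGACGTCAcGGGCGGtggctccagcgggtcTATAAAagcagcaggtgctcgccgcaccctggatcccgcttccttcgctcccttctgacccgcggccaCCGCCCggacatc
Ptgs2: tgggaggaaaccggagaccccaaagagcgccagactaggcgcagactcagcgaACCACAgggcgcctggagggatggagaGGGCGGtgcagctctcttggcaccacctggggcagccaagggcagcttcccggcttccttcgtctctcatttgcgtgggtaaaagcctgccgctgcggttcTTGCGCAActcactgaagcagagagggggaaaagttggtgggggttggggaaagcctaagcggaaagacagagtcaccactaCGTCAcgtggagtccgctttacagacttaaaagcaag
Ptx3: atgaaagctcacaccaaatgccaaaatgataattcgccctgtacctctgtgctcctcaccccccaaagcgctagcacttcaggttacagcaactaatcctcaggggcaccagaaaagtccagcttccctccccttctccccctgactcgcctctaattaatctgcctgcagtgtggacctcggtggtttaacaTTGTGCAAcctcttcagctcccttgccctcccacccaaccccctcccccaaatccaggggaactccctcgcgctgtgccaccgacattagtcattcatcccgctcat
The full cAMP response element stood in 1 of the 8 windows, that of Areg, at position -61 from the annotated start (position 0), and in 1.79% of all 32851 promoters in the table. The short form was in 4 of the 8 windows (Areg, Ptgs2, Btc and Adamts1) and in 20.8% of all promoters. The C/EBP motif was in 2 of 8, at position -69 of Ptgs2 and -57 of Ptx3, and in 10.8% of all promoters. The GC box was in 5 of 8 against 35.7%, the TATA box in 3 of 8 against 13.6%, and the RUNX core in 2 of 8 (Ptgs2 and Edn2) against 16.8%. The letters of the progesterone receptor motif (19% of all promoters) and of the orphan receptor motif (4.72%) were in none of the 8. The 3 windows with TATAAA, those of Pgr, Areg and Adamts1, also held a GC box. The TATAAA match lay at -31 in Areg and -32 in Adamts1, but at -212 and on the other strand in Pgr. The levels of Pgr and Areg ran together over the libraries, and those of Pgr and Adamts1 ran against each other. A link between these motifs and the levels was not tested.

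The libraries held between 1365640 and 36068284 counts in genes. Levels are given as counts scaled to a library total of 1000000 (CPM). At this depth most of the 10 genes were thinly counted: of 200 values (10 genes in 20 libraries), 19 were 0 and 64 were under 10 counts. The ovarian label was checked with 10 oocyte, 10 granulosa and 10 luteal and theca markers, and no marker of these lists was at 0 throughout a group. Normal 6-month replicate 2 stood apart: its oocyte markers summed to 5.68 CPM against a group median of 272, its granulosa markers to 272 against 4552 and its luteal and theca markers to 243 against 11480. In the same library 9 oviduct epithelium markers summed to 6742 CPM, the highest of the 20 libraries, against 41.6 to 168 in the other 4 of its group. Normal 6-month replicate 3 was the shallowest library, and in normal 22-month replicate 3 the lymphocyte markers summed to 1167 CPM against a group median of 118. Results that these 3 libraries decide are given with and without them, and no call named below for another gene of a list was lost when all 3 were left out, apart from Serpine2, which was not refitted.

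The sums of the same oviduct markers were higher in every 22-month library than in any 6-month library of its genotype, apart from normal 6-month replicate 2. They came to 41.6 to 168 CPM in 4 of 5 normal 6-month libraries and to 2366 to 4161 CPM in normal mice at 22 months. Dwarf mice had 43.5 to 1781 CPM at 6 months and 2207 to 3838 CPM at 22 months. None of the 9 passed the edgeR test in any comparison. Markers of the ovarian surface and mesothelium ran alongside, from 214 to 2230 CPM in normal mice at 6 months, 901 to 2163 at 22 months, and in dwarf mice from 214 to 854 and 987 to 1517. In edgeR 2 of these 9 markers, Gpm6a and Upk1b, were higher at 22 months in both genotypes. Of all genes 6.75% were called for age in normal and 11.2% in dwarf mice. Oocyte markers went the other way. In edgeR 9 of 10 were lower at 22 than at 6 months in normal mice and 8 of 10 in dwarf mice. Bulk RNA cannot separate fewer cells of a type from less RNA per cell.

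Per kilobase of exon, Adamts1 was the most abundant of the 10 genes, at 6.41 ± 2.45 CPM per kb (mean ± SD, n = 20 libraries), above 62.7% of all genes. Pgr followed at 2.84 ± 3.16, and Edn2 (1.55 ± 0.945), Tnfaip6 (1.18 ± 0.658) and Ptx3 (0.793 ± 0.444) came next. Areg (0.440 ± 0.577), Btc (0.391 ± 0.232) and Ptgs2 (0.341 ± 0.270) stood close together, above Ereg (0.150 ± 0.111) and Has2 (0.0678 ± 0.0738). Few neighbours in this order were separated: Adamts1 was above Pgr in 17 of 20 libraries, but Pgr was above Edn2 in 11 of 20 and Areg above Btc in 8 of 20. The ranges over libraries overlapped for every neighbouring pair. Adamts1 was the only one of the 10 at or above 1 CPM in all 20 libraries.

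**Figure D1:**
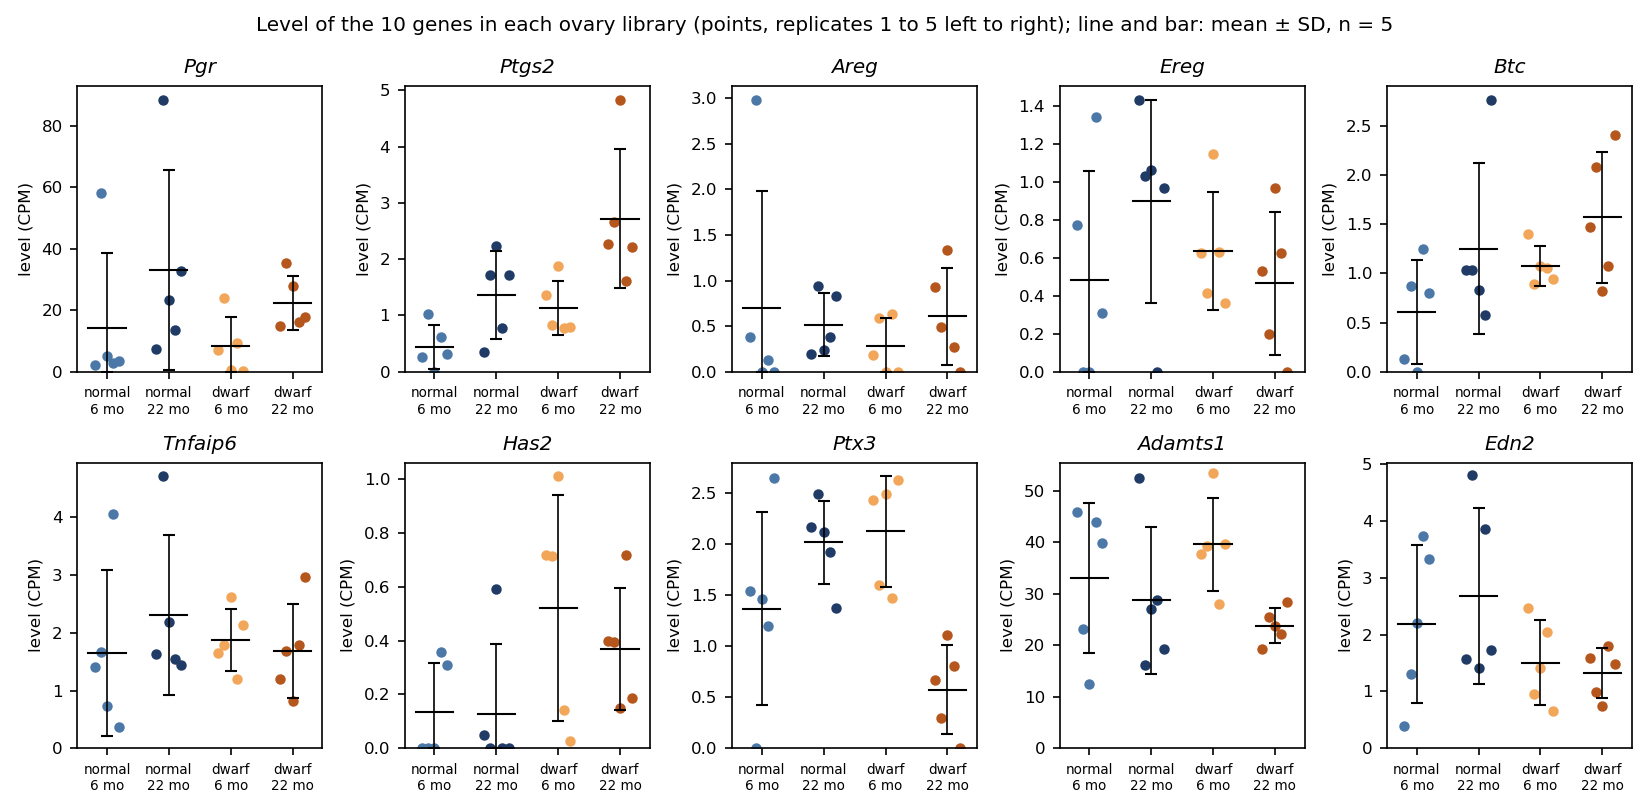
Level of each gene in CPM (y axis, linear, starting at 0 and scaled per gene) in the 5 libraries of each group (points, replicates 1 to 5 from left to right); the horizontal line is the mean and the bar the SD (n = 5). The Ptx3 points of dwarf mice at 22 months, 0 to 1.12 CPM, lie below all points of dwarf mice at 6 months and of normal mice at 22 months, and 1 normal 6-month library, replicate 2, is high for both Pgr and Areg.

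Changes were tested in edgeR over all 16099 genes that passed the filter, with Benjamini-Hochberg adjustment over all of them. Each library was taken as 1 mouse, and p-values measure the spread between these libraries. None of the 9 tested genes passed an adjusted p of 0.05 for age in normal mice, where 6.75% of all genes did, or for age in dwarf mice, where 11.2% did. None passed for genotype at 6 months (4.57% of all genes), for genotype at 22 months (3.81%) or for the difference of the age responses between genotypes (0%). At an unadjusted edgeR p under 0.05 there were 1, 3, 0, 1 and 1 of the 9, in that order. Of all 16099 genes there were 3748, 4528, 2969, 2894 and 1127. DESeq2 called 0, 1, 0, 0 and 0 of the 9, and limma voom called 0, 4, 0, 1 and 0. Of all 16099 genes DESeq2 called 1766, 2747, 1414, 1201 and 17, and limma voom 3803, 7492, 1855, 2266 and 9.

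The sign of the fitted changes was mixed. With age in normal mice 7 of 9 log2 changes were positive and their median was 0.57, against -0.02 over all tested genes. With age in dwarf mice 4 of 9 were positive, with a median of -0.26 against 0.00. Dwarf mice had 6 of 9 positive differences from normal mice at 6 months (median 0.15 against -0.04) and 3 of 9 at 22 months (median -0.58 against -0.04). For the difference of the age responses 2 of 9 were positive, with a median of -0.51 against 0.00. The comparisons share groups of libraries and are not independent of each other.

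**Figure D2:**
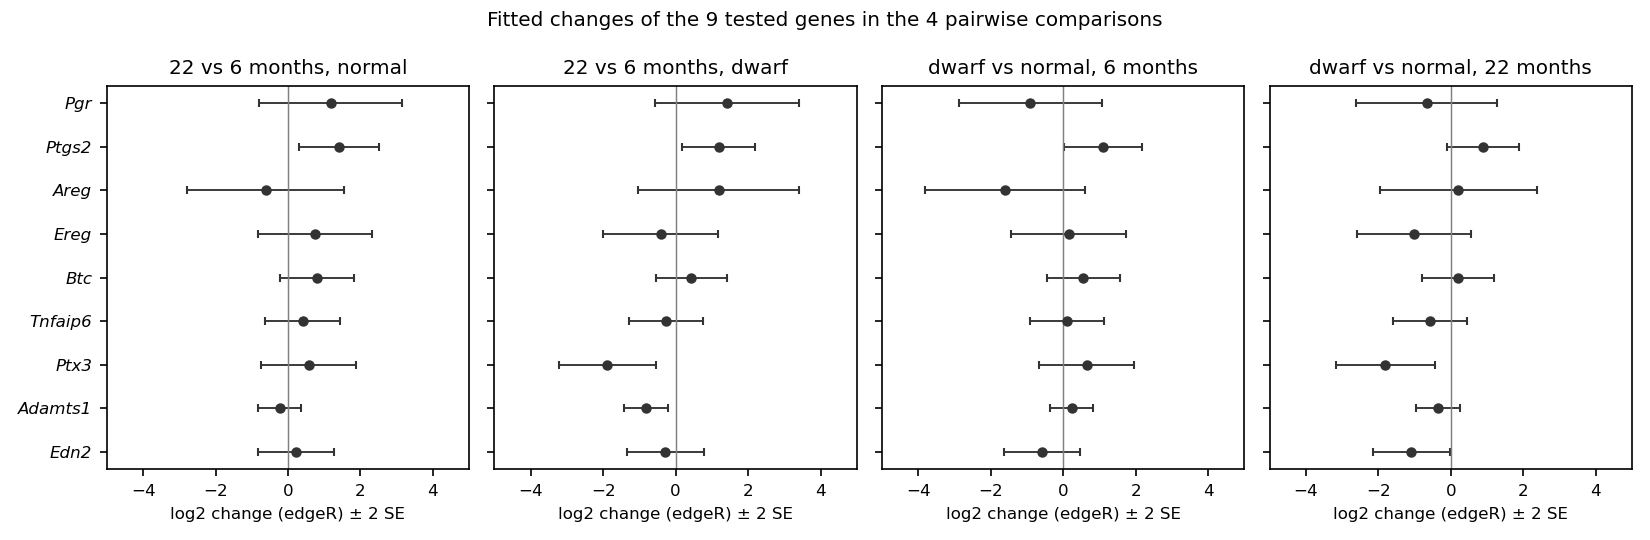
Fitted log2 change (x axis, edgeR; points) with 2 SE on either side (bars) for the 9 tested genes (y axis) in the 4 pairwise comparisons, positive towards 22 months or towards dwarf mice. Ptgs2 lies on the positive side in all 4 panels, Ptx3 and Adamts1 have bars that end below 0 for age in dwarf mice, and the bars of Pgr and Areg cross 0 in all 4 panels.

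Groups that did not overlap at all were found for 1 gene, Ptx3, in 2 comparisons. For age in dwarf mice this was 1 of 9, where 22.1% of all tested genes had groups that did not overlap. For genotype at 22 months it was also 1 of 9, against 7.24%. For age in normal mice it was 0 of 9 against 2.39%, and for genotype at 6 months 0 of 9 against 5.88%.

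Pgr (chr9:8899833-8968611, plus strand, 8 exons) encodes the progesterone receptor, a transcription factor without which the follicle does not rupture. In normal mice at 6 months it was at 2.18, 58.0, 5.13, 2.94 and 3.39 CPM in replicates 1 to 5, and at 22 months at 7.45, 88.5, 23.4, 13.5 and 32.7 CPM. In dwarf mice it was at 7.17, 24.1, 0.673, 9.21 and 0.388 CPM at 6 months and at 14.9, 35.5, 27.7, 16.2 and 17.8 CPM at 22 months. Apart from normal 6-month replicate 2, each normal 22-month library was above each normal 6-month library. In dwarf mice only 6-month replicate 2 reached into the range of the 22-month libraries.

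The log2 change of Pgr with age was 1.18 ± 0.99 (SE) in normal mice (edgeR adjusted p = 0.501) and 1.42 ± 0.99 in dwarf mice (adjusted p = 0.359). Normal 6-month replicate 2 decided the first of these: without it the change was 3.46 (edgeR adjusted p = 0.0158), in a fit that called 4384 of 16272 genes for this comparison. Without all 3 libraries that stood apart it was 3.70 (adjusted p = 0.0274). In dwarf mice, limma voom gave 1.99 with an adjusted p of 0.0203, while edgeR and DESeq2 did not call it.

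Dwarf mice differed from normal mice in Pgr by -0.90 ± 0.99 at 6 months (edgeR adjusted p = 0.692) and by -0.67 ± 0.98 at 22 months (adjusted p = 0.814). Neither direction held: without normal 6-month replicate 2 the first was 1.38, and without normal 22-month replicate 2, the library with 88.5 CPM, the second was 0.16. These p-values do not show that the genotypes were alike, since an interval of 2 SE at 22 months ran from -2.62 to 1.29.

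Pgr was in general higher in libraries with more of the oviduct markers, with exceptions within the groups. In dwarf mice at 6 months, replicates 3 and 5 had the least Pgr and the lowest oviduct sums, 44.1 and 43.5 CPM, and replicate 2 had the most Pgr and the highest sum, 1781 CPM. Ovgp1, which encodes the secreted glycoprotein of oviduct epithelium, was at 431, 970, 11.7, 492 and 20.0 CPM in the same 5 libraries. In normal mice at 22 months, replicate 2, with the most Pgr of all 20 libraries (88.5 CPM), had a sum of 2374 CPM, and replicate 5, with the highest sum of that group, 4161 CPM, had 32.7 CPM of Pgr. In normal mice at 6 months the library with the least Pgr, replicate 1, had a sum of 168 CPM, below only that of replicate 2. Over the 20 libraries Spearman's rho of Pgr with the summed oviduct markers was 0.871, and 0.847 for residuals from group means. With the surface and mesothelium markers it was 0.875, and with the granulosa markers, the cells in which the ovulatory surge induces Pgr, it was -0.756. These are descriptions over libraries that fall into 4 groups and share the library total. When edgeR was given the oviduct score as a covariate, the age change of Pgr was -0.13 in normal mice (adjusted p = 0.946) and 0.23 in dwarf mice (adjusted p = 0.851). That fit called 2 of all 16099 genes for age in normal mice and 420 in dwarf mice, against 1086 and 1802 without the score. The score was in general higher at 22 months, so the fit separates it from age only in part. Most age calls of any gene were thus lost in it. Whether cells of the oviduct were taken with the ovaries was not tested.

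**Figure D3:**
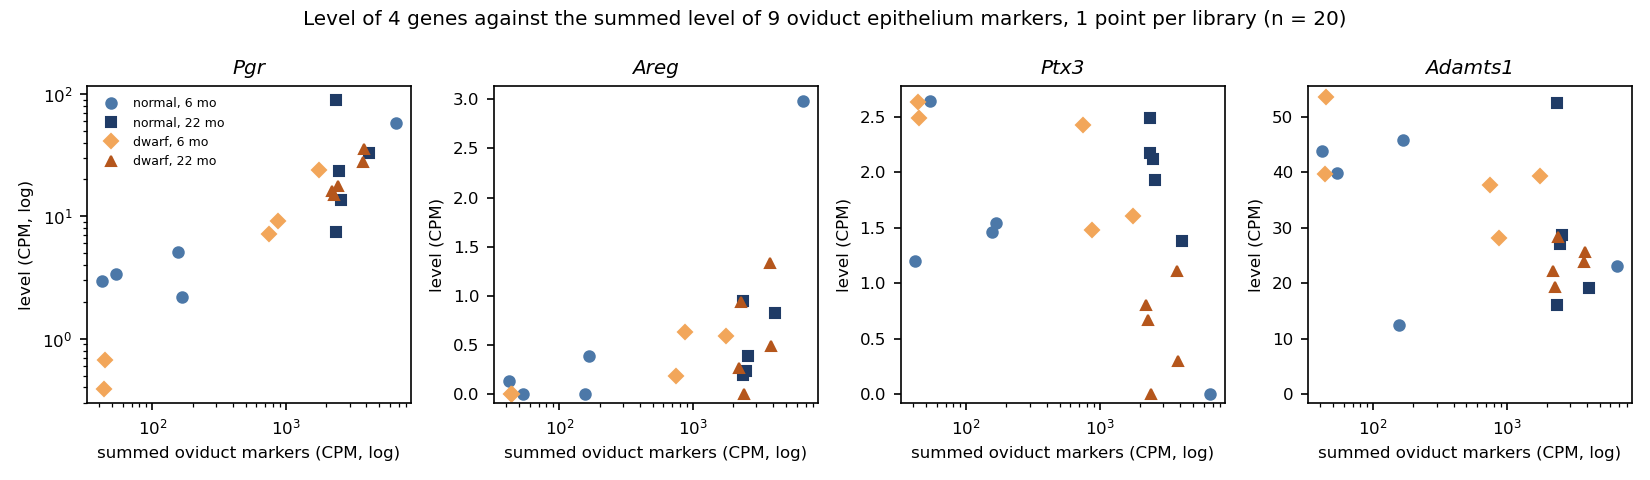
Level of Pgr (CPM, log axis), Areg, Ptx3 and Adamts1 (CPM, linear axes from near 0) against the summed level of 9 oviduct epithelium markers (x axis, CPM, log), 1 point per library with a symbol for each of the 4 groups (n = 20). Pgr is lowest, at 0.388 CPM, in a library with a marker sum of 43.5 CPM. It is at 58.0 CPM in the library with the highest sum, 6742 CPM, and is highest, at 88.5 CPM, in one with a sum of 2374 CPM. The Ptx3 points of dwarf mice at 22 months lie below those of normal mice at 22 months.

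Areg encodes amphiregulin, a ligand that the cAMP signal of the surge induces. It was at 0.385, 2.98, 0, 0.134 and 0 CPM in normal mice at 6 months and at 0.197, 0.945, 0.236, 0.386 and 0.829 CPM at 22 months. Dwarf mice had 0.187, 0.594, 0, 0.633 and 0 CPM at 6 months and 0.932, 0.494, 1.34, 0.269 and 0 CPM at 22 months. All 4 groups overlapped, and 41 of the 138 Areg counts in the series came from normal 6-month replicate 2. A count of 0 still allowed 0.0832 to 2.20 CPM in the 5 libraries concerned (3 counts of each total, counting error only).

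That 1 library set the sign of 2 of the Areg comparisons. The age change in normal mice was -0.62 ± 1.09 (edgeR adjusted p = 0.772) and became 1.94 without it. The difference of dwarf from normal mice at 6 months was -1.60 ± 1.11 (edgeR adjusted p = 0.481) and became 0.95. The difference of the age responses was 1.81 ± 1.55 (edgeR adjusted p = 0.913). With each library left out it ran from -0.70 to 2.33, so its sign did not hold either. In dwarf mice the age change was 1.19 ± 1.11 (adjusted p = 0.492), and -0.29 in the model that held the oviduct score. Areg ran with Pgr over the libraries (Spearman's rho 0.749, n = 20, and 0.770 for residuals from group means). It also ran with the oviduct markers (rho 0.683, residuals 0.755) and with the surface and mesothelium markers (rho 0.727, residuals 0.793).

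Ereg encodes epiregulin, which acts on the same receptor. It was at 0.770, 0, 0, 1.34 and 0.308 CPM in normal mice at 6 months and at 1.43, 1.03, 1.06, 0 and 0.967 CPM at 22 months. In dwarf mice the values were 0.623, 0.415, 1.14, 0.633 and 0.360 CPM at 6 months and 0.533, 0.198, 0.967, 0.627 and 0 CPM at 22 months. At 22 months normal libraries ran from 0 to 1.43 CPM and dwarf libraries from 0 to 0.967 CPM, so the groups overlapped. The 0 of each group came from its shallowest library, normal replicate 4 (5186090 counts) and dwarf replicate 5 (5399377 counts). The log2 difference of dwarf from normal mice at that age was -1.02 ± 0.79 (edgeR adjusted p = 0.558). Unlike Areg, Ereg had a rho of -0.17 with the oviduct markers.

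Btc encodes betacellulin. Its levels in normal mice were 0.128, 0.874, 0, 1.25 and 0.800 CPM at 6 months and 1.04, 1.03, 0.825, 0.578 and 2.76 CPM at 22 months. Dwarf mice had 1.40, 0.890, 1.08, 1.05 and 0.943 CPM at 6 months, the narrowest spread of any group for this gene, and 1.47, 2.08, 0.818, 1.08 and 2.41 CPM at 22 months. The ranges overlapped in all comparisons. The age change was 0.79 ± 0.51 in normal mice (edgeR adjusted p = 0.363) and 0.44 ± 0.49 in dwarf mice (adjusted p = 0.574).

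The other genes of the EGF network give the setting for these ligands. Here and below, the number of listed genes that passed is over all comparisons. The matching share of all genes was not computed, so shares are given per comparison. Of 12 listed, 10 were tested and 1 passed the edgeR test: Hbegf, which encodes heparin-binding EGF-like growth factor. It was at 8.49 ± 2.21 CPM in normal mice at 6 months (mean ± SD, n = 5) and 8.41 ± 5.39 at 22 months, and in dwarf mice at 23.3 ± 6.09 and 7.18 ± 2.97 CPM. The fall with age in dwarf mice was -1.78 ± 0.37 (edgeR adjusted p = 0.00643), and it was called in all 10 fits that left out 1 library and with the oviduct score as a covariate. Dwarf mice had more Hbegf than normal mice at 6 months, by 1.43 ± 0.37 (adjusted p = 0.0339), a call kept in 3 of 10 such fits. Egfr, the receptor, was at 51.1 ± 30.5 and 45.2 ± 13.2 CPM in normal mice and 49.6 ± 5.33 and 55.0 ± 5.92 CPM in dwarf mice at 6 and 22 months, and was not called in any comparison.

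Ptgs2 (chr1:150100124-150108012, plus strand, 10 exons) encodes cyclooxygenase 2, which makes the prostaglandins needed for cumulus expansion and rupture. It was at 0.257, 1.02, 0, 0.624 and 0.308 CPM in normal mice at 6 months and at 0.345, 1.72, 2.24, 0.771 and 1.73 CPM at 22 months. In dwarf mice it was at 1.37, 0.831, 1.88, 0.773 and 0.804 CPM at 6 months and at 2.26, 2.67, 4.83, 1.61 and 2.22 CPM at 22 months. The group means ran in the order normal 6 months (0.442 ± 0.392), dwarf 6 months (1.13 ± 0.488), normal 22 months (1.36 ± 0.777) and dwarf 22 months (2.72 ± 1.24 CPM), with overlap between neighbours in that order. The highest of the 20 values was in dwarf 22-month replicate 3, from 65 counts.

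The fitted log2 changes of Ptgs2 were positive in all 4 comparisons and under every alternative tried. They were 1.40 ± 0.55 for age in normal mice (edgeR adjusted p = 0.132) and 1.19 ± 0.50 for age in dwarf mice (adjusted p = 0.128). Dwarf mice were above normal mice by 1.10 ± 0.54 at 6 months (adjusted p = 0.292) and by 0.88 ± 0.50 at 22 months (adjusted p = 0.379). Without normal 6-month replicate 2 the age change in normal mice was 1.88 and passed the edgeR test (adjusted p = 0.0242). The age change in dwarf mice passed with only the dwarf libraries in the fit (1.25, adjusted p = 0.0267), in limma voom (0.90, adjusted p = 0.0324) and without the 3 libraries that stood apart (1.24, adjusted p = 0.0462).

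Of 12 other prostaglandin genes, all tested, 2 passed. For age 1 of the 12 was called in normal mice (6.75% of all genes) and 2 in dwarf mice (11.2%). For genotype 1 was called at 6 months (4.57%) and 1 at 22 months (3.81%). Hpgd encodes the dehydrogenase that inactivates prostaglandins. It was at 13.6 ± 4.28 and 6.65 ± 2.56 CPM in normal mice at 6 and 22 months and at 40.7 ± 6.70 and 23.4 ± 4.97 CPM in dwarf mice, and no dwarf library at either age was below any normal library of the same age. It was higher in dwarf mice by 1.55 ± 0.25 at 6 months (edgeR adjusted p = 0.00178) and by 1.71 ± 0.26 at 22 months (adjusted p = 0.000947), in all 22 alternative fits of each. With age it fell by 1.05 on the log2 scale in normal mice (adjusted p = 0.0209) and by 0.89 in dwarf mice (adjusted p = 0.0273). The first age call was kept in all 10 fits without 1 library and the second in 3 of 10, and both were lost with the oviduct score as a covariate.

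Ptges, which encodes a prostaglandin E synthase, fell with age in dwarf mice, from 150.6 ± 21.7 to 61.4 ± 5.90 CPM (log2 change -1.38 ± 0.34, edgeR adjusted p = 0.0147). The ranges, 116 to 174 and 57.0 to 70.7 CPM, did not overlap. In normal mice Ptges was at 124 ± 72.0 and 64.5 ± 18.2 CPM and did not pass. The call in dwarf mice was lost with the oviduct score as a covariate. For Ptger2, the prostaglandin E receptor of cumulus cells, the levels were 14.1 ± 6.16 and 18.4 ± 7.21 CPM in normal mice and 16.3 ± 2.95 and 11.9 ± 2.54 CPM in dwarf mice, with no call in any comparison.

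Ptx3 (chr3:66219887-66225806, plus strand, 3 exons, inside the span of Veph1 with no shared exon) encodes pentraxin 3, which ties the hyaluronan chains of the cumulus matrix together. In dwarf mice it was at 2.43, 1.60, 2.49, 1.48 and 2.63 CPM at 6 months and at 0.666, 0.296, 1.12, 0.806 and 0 CPM at 22 months. In normal mice it was at 1.54, 0, 1.46, 1.20 and 2.65 CPM at 6 months and at 2.17, 2.49, 2.12, 1.93 and 1.38 CPM at 22 months. The 5 dwarf 22-month libraries lay below all dwarf 6-month and all normal 22-month libraries. Of the other libraries only normal 6-month replicate 2, at 0, was as low, and it was the one with few oocyte, granulosa and luteal markers.

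The age change of Ptx3 in dwarf mice was -1.88 ± 0.67 (edgeR adjusted p = 0.0765), and the difference of dwarf from normal mice at 22 months was -1.81 ± 0.68 (adjusted p = 0.151). In normal mice the age change was 0.57 ± 0.66 (adjusted p = 0.634), and at 6 months dwarf mice differed by 0.64 ± 0.65 (adjusted p = 0.665). The difference of the age responses was -2.45 ± 0.94 (edgeR adjusted p = 0.615), so a different age response in dwarf mice was not shown. These values rest on few counts: the dwarf 22-month libraries held 5, 3, 15, 9 and 0 counts of Ptx3, 32 in all, against 258 in dwarf mice at 6 months. The count of 0 allowed up to 0.556 CPM.

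How Ptx3 was called depended on the fit. The age change in dwarf mice passed in DESeq2 (-1.85, adjusted p = 0.0232), in limma voom (-1.80, adjusted p = 0.00139), with only dwarf libraries in the edgeR fit (-1.80, adjusted p = 0.0161) and without the 3 libraries that stood apart, all of them normal (-1.82, adjusted p = 0.00874). Adding the oviduct score to the model gave -0.97 (adjusted p = 0.431). The difference at 22 months passed in limma voom (adjusted p = 0.0342) and without the 3 libraries (adjusted p = 0.0324), and was -1.73 (adjusted p = 0.0802) once the oviduct score was in the model. Summed oviduct markers ran from 2366 to 4161 CPM in normal and from 2207 to 3838 CPM in dwarf mice at 22 months. Macrophage markers summed to 764.1 to 2512 CPM in these normal and 462.8 to 728.5 CPM in these dwarf mice. For luteal and theca markers the sums were 2622 to 11370 and 1657 to 4436 CPM. The part of cell content in the Ptx3 difference was not tested.

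Tnfaip6 encodes TSG-6, which moves heavy chains of inter-alpha-inhibitor onto hyaluronan. It was at 1.41, 1.67, 0.732, 4.06 and 0.369 CPM in normal mice at 6 months, the widest spread of the 4 groups, and at 1.63, 4.72, 2.18, 1.54 and 1.45 CPM at 22 months. Dwarf mice had 1.65, 1.78, 2.63, 1.20 and 2.13 CPM at 6 months and 1.20, 1.68, 0.818, 1.79 and 2.96 CPM at 22 months. All ranges overlapped, and at 22 months the difference of dwarf from normal mice was -0.58 ± 0.51 (edgeR adjusted p = 0.630).

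Has2 (chr15:56665627-56694546, minus strand, 4 exons) encodes the synthase of the cumulus hyaluronan. It had 95 counts in all 20 libraries together and was at 0 in 6 of them. Normal mice had 0, 0, 0, 0.357 and 0.308 CPM at 6 months and 0.0493, 0, 0.590, 0 and 0 CPM at 22 months. Dwarf mice had 0.717, 0.712, 1.01, 0.141 and 0.0277 CPM at 6 months and 0.400, 0.395, 0.149, 0.717 and 0.185 CPM at 22 months. All 6 libraries at 0 were normal, and they still allowed 0.207 to 2.20 CPM each. The group sums were 13, 11, 53 and 18 counts in the same order, with the dwarf 6-month group the most deeply sequenced. Exons of Has2 share 182 bp with the antisense gene Has2as, and the strand setting of the counting was not given in the sources used here, so reads of the 2 genes cannot be told apart there.

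The further matrix genes showed 1 clear pattern. Of 16 listed 14 were tested and 4 passed in at least 1 comparison. For age 1 of the 14 was lower in normal mice (6.75% of all genes called). In dwarf mice 1 was higher and 2 were lower (11.2%). For genotype 1 was higher at 6 months (4.57%) and 1 at 22 months (3.81%). Itih2, which encodes a heavy chain of inter-alpha-inhibitor, the partner of TSG-6, was at 18.5 ± 11 and 3.80 ± 1.16 CPM in normal mice at 6 and 22 months and at 80.1 ± 16.5 and 49.4 ± 16.4 CPM in dwarf mice. Every dwarf library was above every normal library of its age: 61.1 to 102 against 2.48 to 28.7 CPM at 6 months and 21.5 to 63.0 against 2.54 to 5.04 CPM at 22 months. The differences were 2.09 ± 0.45 (edgeR adjusted p = 0.0101) and 3.62 ± 0.48 (adjusted p = 0.000448), and each was called in all 10 fits without 1 library. In normal mice Itih2 fell with age by 2.31 on the log2 scale (adjusted p = 0.0103), a call lost with the oviduct score as a covariate.

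With age in dwarf mice, Cd44, a hyaluronan receptor, rose by 1.43 ± 0.42 (edgeR adjusted p = 0.0347), from 9.08 ± 3.88 to 25.3 ± 11.3 CPM. Hmmr, which encodes another hyaluronan-binding protein, fell by 0.77 (adjusted p = 0.0188), and Hyal2, a hyaluronidase, fell by 0.56 (adjusted p = 0.00798). Without 1 library the call of Cd44 was kept in 5 of 10 fits, that of Hmmr in all but the fit without dwarf 6-month replicate 5 (adjusted p = 0.0609), and that of Hyal2 in all 10. All 3 were lost with the oviduct score as a covariate. That fit called 420 of all genes for this comparison, against 1802 without the score. Versican, encoded by Vcan and a substrate of ADAMTS1, was at 47.1 ± 46.6 and 18.2 ± 5.94 CPM in normal mice and 39.4 ± 11.2 and 23.0 ± 4.14 CPM in dwarf mice, with no call.

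Adamts1 (chr16:85793828-85803115, minus strand, 9 exons) encodes a secreted protease that the progesterone receptor induces in granulosa cells. It was at 37.7, 39.2, 53.5, 28.1 and 39.7 CPM in dwarf mice at 6 months and at 19.3, 25.6, 23.7, 22.2 and 28.3 CPM at 22 months. In normal mice it was at 45.8, 23.2, 12.5, 43.9 and 39.8 CPM at 6 months and at 52.4, 16.1, 27.1, 28.7 and 19.2 CPM at 22 months. In dwarf mice the groups met only at 28.1 CPM (6-month replicate 4) and 28.3 CPM (22-month replicate 5). In normal mice the lowest 6-month values were those of replicates 2 and 3, 2 of the libraries that stood apart.

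The age change of Adamts1 was -0.82 ± 0.30 in dwarf mice (edgeR adjusted p = 0.0822) and -0.22 ± 0.30 in normal mice (adjusted p = 0.686). The first passed in limma voom (-0.86, adjusted p = 0.00144), with only dwarf libraries in the fit (-0.77, adjusted p = 0.00467) and without the 3 libraries that stood apart (-0.78, adjusted p = 0.0326). Adding the oviduct score to the model gave -0.47 (adjusted p = 0.404). At 22 months dwarf mice differed from normal mice by -0.36 ± 0.30 (adjusted p = 0.598). Adamts1 ran against Pgr over the libraries (Spearman's rho -0.669, n = 20, and -0.678 for residuals from group means), and with the endothelial markers (rho 0.814).

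Of 12 other genes of proteolysis, all tested, 5 passed in at least 1 comparison. For age 0 of the 12 were called in normal mice (6.75% of all genes) and 4 were lower in dwarf mice (11.2%). For genotype 2 were higher and 1 lower at 6 months (4.57%), and 2 were lower at 22 months (3.81%). Ctsl, the gene of cathepsin L, was at 1018 ± 188 CPM in dwarf mice at 6 months and 368 ± 51.5 at 22 months, a fall of -1.56 ± 0.21 (edgeR adjusted p = 0.000435) with ranges of 736 to 1220 and 324 to 457 CPM. It was called in all 22 alternative fits. At 6 months dwarf mice were above normal mice (458 ± 131 CPM) by 1.11 ± 0.21 (adjusted p = 0.00380). Adamts5, an aggrecanase related to ADAMTS1, had the same 2 calls: it fell with age in dwarf mice from 73.5 ± 23.1 to 25.5 ± 2.45 CPM (-1.61 ± 0.33, adjusted p = 0.00603) and was above the 20.2 ± 11.3 CPM of normal mice at 6 months (1.82 ± 0.34, adjusted p = 0.00380).

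Adamts4, another aggrecanase, and Serpine2, a protease inhibitor, also fell with age in dwarf mice (log2 changes -1.25 and -1.40, edgeR adjusted p = 0.0220 and 0.0330), and Adamts4 was lower in dwarf than in normal mice at 22 months by 1.25 on the log2 scale (adjusted p = 0.0419). The calls of Adamts4 were kept in 5 and 4 of 10 fits without 1 library. For Adamts5 and Adamts4 the age calls in dwarf mice were lost with the oviduct score as a covariate, and that of Ctsl was not. Timp1, an inhibitor of metalloproteinases, was lower in dwarf than in normal mice at 6 months by 2.82 on the log2 scale (adjusted p = 0.0159) and at 22 months by 2.31 (adjusted p = 0.0476). Its normal 6-month libraries ran from 6.41 to 486 CPM against 18.1 to 36.0 CPM in dwarf mice, so those groups overlapped. The 6-month call was lost without dwarf 6-month replicate 1 (adjusted p = 0.0504), and the 22-month call was kept in 1 of 10 fits.

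Edn2 (chr4:120161424-120167360, plus strand, 5 exons) encodes endothelin 2. It was at 0.385, 1.31, 2.20, 3.75 and 3.32 CPM in normal mice at 6 months and at 1.58, 4.81, 1.41, 3.86 and 1.73 CPM at 22 months. Dwarf mice had 2.46, 0.950, 1.41, 2.04 and 0.665 CPM at 6 months and 1.60, 0.988, 0.744, 1.79 and 1.48 CPM at 22 months. The 4 highest of the 20 values, above 3 CPM, were all in normal mice, 2 at each age. Dwarf mice differed by -0.59 ± 0.52 at 6 months (edgeR adjusted p = 0.613) and by -1.10 ± 0.53 at 22 months (adjusted p = 0.286), and the ranges overlapped at both ages. Of 6 other endothelin genes Ece2, a converting enzyme, was lower in dwarf mice by 0.88 on the log2 scale at 6 months (adjusted p = 0.0184) and by 0.84 at 22 months (adjusted p = 0.0267), calls kept in 7 and 4 of 10 fits without 1 library. Ece1 fell with age in dwarf mice by 0.45 (adjusted p = 0.0416), a call kept in 2 of 10 and lost with the oviduct score in the model. The receptors Ednra and Ednrb were not called.

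**Figure D4:**
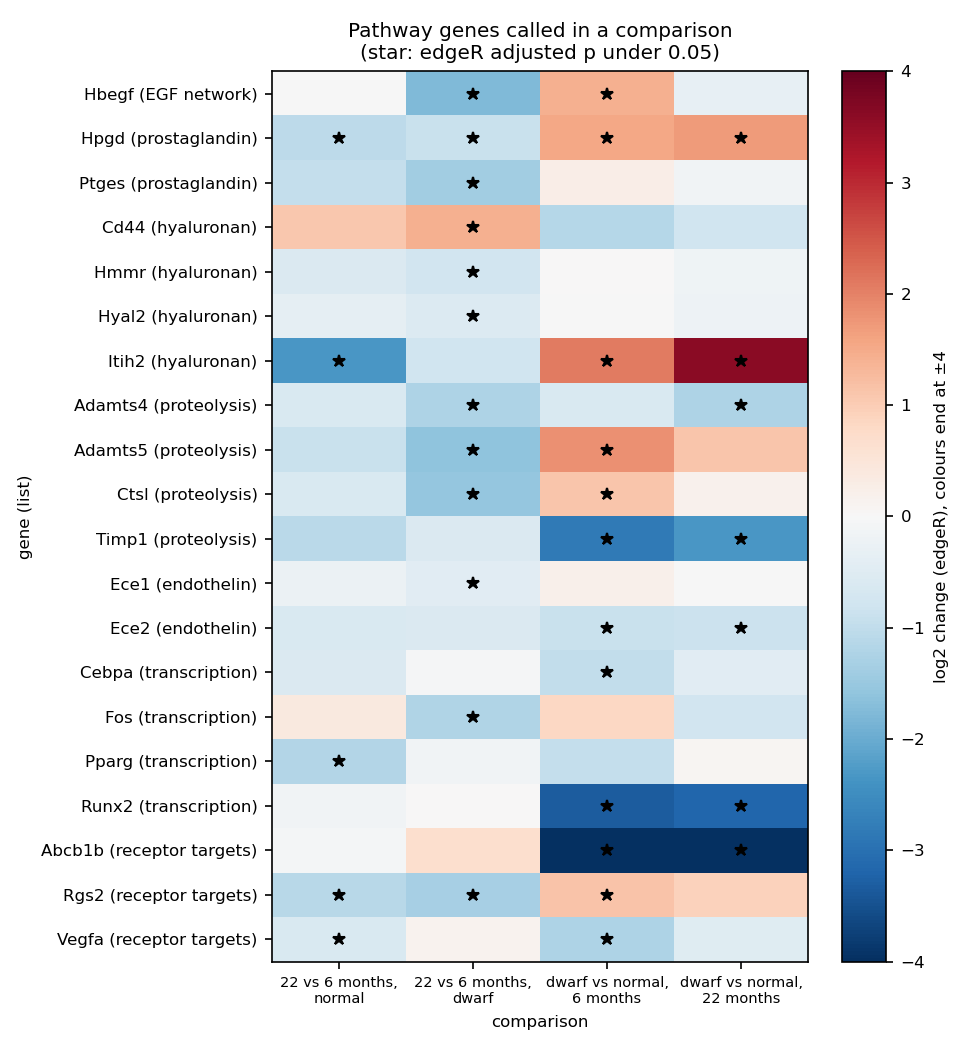
Fitted log2 change (edgeR, colour, ending at ±4) of 20 genes around the 10 (y axis, with the list each belongs to) in the 4 pairwise comparisons (x axis); a star marks an adjusted p under 0.05. Hpgd and Itih2 are starred on the positive side in both comparisons of dwarf with normal mice, and Runx2 and Abcb1b on the negative side. Most stars for age in dwarf mice are on the negative side, where most calls of any gene also lay. Of all tested genes 1332 were called lower and 470 higher for age in dwarf mice.

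Transcription factors that act with or before these genes were called in few cases. Of 15 tested, Runx2, a factor of luteinising granulosa cells, was lower in dwarf mice at both ages. It was at 114.5 ± 100.6 and 104.5 ± 77.4 CPM in normal mice at 6 and 22 months and at 11.5 ± 2.05 and 12.3 ± 0.611 CPM in dwarf mice (log2 differences -3.32 ± 0.64 and -3.17 ± 0.64, edgeR adjusted p = 0.00529 and 0.00989). The normal 6-month range, 6.48 to 258 CPM, overlapped that of dwarf mice, and the 22-month ranges did not overlap. Fos fell with age in dwarf mice by 1.19 on the log2 scale (adjusted p = 0.0284), Pparg fell with age in normal mice by 1.18 (adjusted p = 0.0446), and Cebpa was lower in dwarf mice at 6 months by 0.97 (adjusted p = 0.0147). The call of Fos was kept in 2 of 10 fits without 1 library, that of Pparg in 1, and that of Cebpa in 9, the exception being the fit without dwarf 6-month replicate 1 (adjusted p = 0.0529). The calls of Fos and Pparg were lost with the oviduct score in the model.

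Of 8 genes described as targets of the progesterone receptor in the follicle, 6 were tested and 3 passed. For age 2 of the 6 were lower in normal mice (6.75% of all genes called) and 1 in dwarf mice (11.2%). For genotype 1 was higher and 2 were lower at 6 months (4.57%), and 1 was lower at 22 months (3.81%). Abcb1b, which encodes an efflux pump, was at 190 ± 120 and 187 ± 103 CPM in normal mice at 6 and 22 months and at 6.28 ± 1.25 and 10.6 ± 1.94 CPM in dwarf mice. The differences were -4.96 ± 0.70 and -4.23 ± 0.68 (edgeR adjusted p = 0.000659 and 0.00173), called in all 22 alternative fits of each. Rgs2, a regulator of G protein signalling, fell with age in normal mice by 1.12 on the log2 scale (adjusted p = 0.0299) and in dwarf mice by 1.34 (adjusted p = 0.00889), and was higher in dwarf mice at 6 months by 1.14 (adjusted p = 0.0348). Vegfa was lower in dwarf mice at 6 months by 1.23 (adjusted p = 0.000360), at 86.1 ± 13.6 against 198 ± 66.7 CPM, and fell with age in normal mice by 0.60 (adjusted p = 0.0300). The age calls in normal mice were kept in 3 (Rgs2) and 5 (Vegfa) of 10 fits without 1 library and that of Rgs2 for genotype in 6 of 10. All 3 age calls were lost with the oviduct score as a covariate. Cxcr4, Prkg2 and Zbtb16 were not called.

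Beside the calls of genotype stand the luteal and theca markers, of which 4 of 10 were lower in dwarf mice at 6 months and 3 of 10 at 22 months, with 1 higher at each age. Their sums ran from 243 to 14070 CPM in normal and 2140 to 4133 CPM in dwarf mice at 6 months, and from 2622 to 11370 and 1657 to 4436 CPM at 22 months. None of the granulosa markers was called for genotype at 6 months and 1 of 10 was higher in dwarf mice at 22 months. The part of luteal tissue in the differences of Runx2, Abcb1b, Timp1 and Itih2 was not tested.

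For each tested gene, the genes most like it over the 20 libraries were taken by Spearman's rho of CPM, as a description. Pgr was most like Tmprss2 (rho 0.984) and Epcam (0.973), both genes of epithelial cells, and the values for residuals from group means were 0.941 and 0.967. Adamts1 was most like Vac14 (0.946) and Nos3 (0.913), the latter the nitric oxide synthase of endothelium. Areg was most like Cacfd1 (0.920) and Ankrd46 (0.915), and Ptgs2 like Srgap3 (0.889) and Slc5a6 (0.881). For the other 5 tested genes the highest values were 0.774 for Ptx3 (Nde1), 0.809 for Tnfaip6 (Ppp2cb), 0.770 for Btc (Pdzd7), 0.747 for Ereg (Prox1) and 0.691 for Edn2 (D330050G23Rik). Each is the highest value over all tested genes, and none carries a test.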

How the data were processed

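Ovary RNA of 20 libraries was analysed. Per the file headers and the values, each deposited file holds the authors' whole-number counts of reads per gene for 1 library, in the format of HTSeq. The submitters' processing notes name TopHat2 2.0.10, TopHat, Bowtie2, HTSeq, edgeR and DESeq, with mm10, but what each did, the annotation release and the strand setting are not given in the sources used. The 5 summary rows held 9.84 to 17.6% of a file's counts and entered neither library sizes nor tests.

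CPM is the count scaled to a total of 1000000 over genes, with no further scaling. Counts were tested in R 4.3.3 with edgeR 4.0.16 (quasi-likelihood test, robust, TMM scaling, 4 group means over all 20 libraries, common dispersion 0.165). The filter was filterByExpr with a minimum count of 10 and a minimum total of 15; 16099 genes passed and were called where the Benjamini-Hochberg adjusted p was under 0.05. An SE is the absolute log2 change over the square root of F, and intervals are 2 SE. DESeq2 1.42.0, limma 3.58.1 (voom with quality weights) and the other fits of the closing section were alternatives. The fitting code was tested on simulated data. Exon lengths and positions come from the deposited annotation (mm10). The oviduct score is the mean log2 CPM of the oviduct markers (prior count 2).

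The genes, the lists and the 3 libraries to leave out were chosen with earlier results of these data known. Named are the 10 genes, for each list and comparison up to 3 called genes in order of p, and the 2 genes most like each tested gene. Egfr, Ptger2, Vcan, Ednra, Ednrb, Cxcr4, Prkg2, Zbtb16, Serpine2 and Ovgp1 fall outside this rule and were named after their values were seen.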

Additional observations from a re-analysis of the deposited data

Results flagged for a closer look

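Of 40 groups of 5 libraries (10 genes in 4 groups), 5 held a highest library whose gap to the next was over 0.71 of the group's range, Dixon's 95% critical value for 5 samples; chance gives about 1 in 20 groups. In normal mice at 6 months, Pgr was at 57.96 CPM in replicate 2 against 5.13 in the next, and Areg was at 2.985 CPM in the same library against 0.385. This library also had the highest sum of oviduct epithelium markers, 6742 CPM, and the lowest sums of oocyte, granulosa and luteal and theca markers of its group. In normal mice at 22 months, Btc was at 2.763 CPM in replicate 5 against 1.04 in the next, from 40 counts. Tnfaip6 was at 4.723 CPM in replicate 2 against 2.18, from 55 counts. Has2 was at 0.5895 CPM in replicate 3 against 0.0493, from 10 counts.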

How the results depend on the processing

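None of the 9 tested genes was called in any of the 5 comparisons by the edgeR fit, and this count of 0 stayed under RLE and upper quartile scaling, both other filters, non-robust estimates, the oviduct score as a covariate and dwarf 22-month replicates 1 and 4 summed. Those 2 libraries were summed because their counts differed least of all pairs (chi-square per degree of freedom 2.42, next lowest 11.65). For age in dwarf mice the count was 1 in DESeq2 (Ptx3), 4 in limma voom (Adamts1, Pgr, Ptgs2 and Ptx3), and 3 with only the groups compared and 3 without the 3 libraries that stood apart (Adamts1, Ptgs2 and Ptx3 in both). In that order these fits called 2747 of 16099, 7492 of 16099, 5169 of 15416 and 4697 of 16366 genes in all. For age in normal mice the count was 1 without those 3 libraries (Pgr) and 0 to 2 with each library left out, the 2 (Pgr and Ptgs2) without normal 6-month replicate 2. The fit without the 3 libraries called 4848 of 16366 genes, and the fit without that replicate 4384 of 16272. For genotype at 22 months the count was 1 in limma voom and 1 without the 3 libraries (Ptx3 in both), where 2266 of 16099 and 1762 of 16366 genes were called. With each library left out the count was 0 to 0 in the other 4 comparisons. Whether replicate numbers pair the libraries was not settled. The mean correlation of same-numbered libraries of different groups was 0.0587 (30 pairs, highest 0.719), against -0.0132 for others (120 pairs, highest 0.458). Of 20 libraries 8 correlated best with their own number. Replicate 2 had the most Pgr and the highest sum of surface and mesothelium markers in each group. The fit with a replicate block called 0 in all 5 comparisons, and gave 0.37 for Areg with age in normal mice and -0.09 for the difference of the age responses of Pgr. Other sign changes came with the oviduct score as a covariate for age in normal mice, to 0.16 for Adamts1 and -0.13 for Pgr, and for age in dwarf mice, to -0.29 for Areg, 0.46 for Ereg and 0.06 for Tnfaip6. In limma voom Areg with age in normal mice was 1.19, Tnfaip6 with age in normal mice -0.0031, Btc for genotype at 22 months -0.06, and Pgr -0.58 for the difference between the 2 age responses; for genotype at 6 months Pgr was 0.47, Adamts1 -0.10, Ereg -0.27 and Tnfaip6 -0.04. Without the 3 libraries Areg with age in normal mice was 2.08, and for genotype at 6 months Pgr was 1.52, Areg 0.87, Adamts1 -0.09, Ereg -0.35 and Tnfaip6 -0.04; the difference of the age responses was -0.82 for Areg and -2.25 for Pgr. With each library left out, Areg ran from -1.04 to 1.94 for age in normal mice and from -2.09 to 0.95 for genotype at 6 months, and Pgr from -1.82 to 1.38 for genotype at 6 months and from -0.90 to 0.16 at 22 months. For the difference of the age responses, Areg ran from -0.70 to 2.33 and Pgr from -2.02 to 1.18 in such fits. The cause was not tested. Of 45 fitted changes, 24 kept their sign under all alternatives. Among the list genes, fits on only the groups compared lost the genotype calls at 6 months of Cebpa, Ctsl, Ece2, Itih2, Rgs2, Runx2 and Timp1 and the age calls in normal mice of Hpgd, Itih2, Pparg, Rgs2 and Vegfa; such fits called 244 and 0 genes in all. They also lost Ece2 for genotype at 22 months. Upper quartile scaling lost Ece1 with age in dwarf mice and Adamts4, Ece2 and Timp1 for genotype at 22 months, and RLE scaling lost Ece1. The fit with no low-count filter and the fit with the replicate block each lost Adamts4 and Timp1 for genotype at 22 months. With dwarf 22-month replicates 1 and 4 summed, the lost calls were Adamts4, Ece1, Fos and Hpgd with age in dwarf mice, Adamts4, Ece2 and Timp1 for genotype at 22 months and Rgs2 for genotype at 6 months. Depth limited Has2, Ereg, Areg and Ptx3, for which 1 count is worth 0.0277 to 0.732 CPM.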
